A study of Mus musculus with 12 samples.

Results

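The question examined here is whether lowering Jarid1b shifted gene expression differently in mouse embryonic stem cells (ESC) and in neural progenitor cells (NPC) made from them. All 12 of 12 arrays of the series enter, as 4 groups of 3. The groups are ESC with a scrambled control shRNA, ESC with a Jarid1b shRNA, NPC with the control shRNA and NPC with the Jarid1b shRNA. All derive from the feeder-independent ESC line E14TG2a.4, grown with LIF. Lentivirus was applied to ESC for 16 h, puromycin selection began 48 h after transduction, and the labels cite a published protocol for turning ESC into NPC. They name 1 Jarid1b construct and do not say whether the cells were clones or pools, or whether replicates were separate cultures, so the spread behind each p-value is that of these arrays and may be technical only. For each gene the log2 difference knockdown minus control was taken in each state, and the ESC value was subtracted from the NPC value. A positive difference means a knockdown effect that was higher in NPC than in ESC. The effect was measured for 18784 genes, with 1 probe set each out of 21212.

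Jarid1b, listed under its current symbol Kdm5b (Entrez gene 75605), encodes a histone demethylase that acts on methylated lysine 4 of histone H3 (H3K4), whose trimethylated form is found at active promoters. Embryonic stem cells can form all tissues of the embryo and express many genes that are shut off as cells become neural, among them genes otherwise used in germ cells. Neural progenitors divide and give rise to neurons and glia.

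The labelled states were checked against their markers, which were chosen after their values were seen. Pou5f1, a core pluripotency factor, read 12.62, 12.71 and 12.64 in control ESC and 5.83, 6.11 and 6.55 in control NPC. Pax6 and Nes, a transcription factor and a filament protein of neural progenitors, read 8.20 to 8.84 and 8.41 to 8.77 in control ESC, and 10.53 to 10.98 and 10.47 to 11.14 in control NPC. Arrays of a group correlated at 0.992 to 0.997 across genes. Median spread was alike in both states, with a pooled SD of 0.132 in ESC and 0.136 in NPC. The lower quartiles of the arrays lay at 5.84 to 6.11, and levels below that are near the floor, where RMA compresses differences and sizes are rough. Of the 68 calls named here, 14 had a group with all arrays below 5.84, namely Bmp5, Boll, Cd93, Dppa2, Emcn, Hbb-y, Pgc, Rasgrp3, Rhoj, Slc25a31, Sparcl1, Sqor, Tex11 and Zfp979.

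Kdm5b itself was lowered more in ESC than in NPC. It read 12.25, 12.47 and 12.50 in control ESC and 10.64, 10.90 and 10.50 in knockdown ESC. In NPC it read 11.24, 11.15 and 11.30 in control and 10.38, 10.48 and 10.54 in knockdown arrays. Every knockdown array was below every control array of its state, and control NPC lay between both ESC groups, while the knockdown arrays of both states overlapped. The difference of the effects was 0.96 ± 0.16 (SE, 95% interval 0.63 to 1.30), with an adjusted p of 0.0172 by limma with Benjamini-Hochberg adjustment over all genes. It was 0.91 without control ESC replicate 3 (adjusted p = 0.0591) and 0.95 without knockdown NPC replicate 2 (adjusted p = 0.0512).

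Over all genes the effect of the knockdown differed between the states for 267 of 18784 (1.42%, adjusted p under 0.05). For 221 (1.18%) the difference was positive and for 46 (0.245%) negative. An unadjusted p under 0.05 was found for 2876 of the 18784, the share to set beside list counts at that threshold. The positive share was 82.8%, against 71.1% (172 and 70 genes) with array medians set equal and 71.4% (220 and 88 genes) after quantile normalization, while the median difference over all genes was -0.0067. A difference of at least 1 on the log2 scale was seen in 117 of the positive and 16 of the negative genes. Across all 18784 genes, which are not independent replicates, the ESC effect and the NPC effect had a Pearson correlation of 0.0458 and a Spearman correlation of -0.0111. They share no array.

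Single arrays moved the count by up to several times. It was 546, 151 and 40 without control ESC replicates 1, 2 and 3, and 154, 75 and 45 without knockdown ESC replicates 1, 2 and 3. It was 180, 97 and 229 without control NPC replicates 1, 2 and 3, and 71, 35 and 176 without knockdown NPC replicates 1, 2 and 3. All 267 genes kept their sign in each of the 22 alternative fits listed under the processing in which they were fitted. Any gene dropped by the filter on low values was counted as keeping its sign there. Of the 267, 30 genes, 28 positive and 2 negative, passed in every fit. Several of these fits leave the estimate of the difference unchanged, and the others reuse most or all of the arrays. A kept sign is therefore little support.

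**Figure D1:**
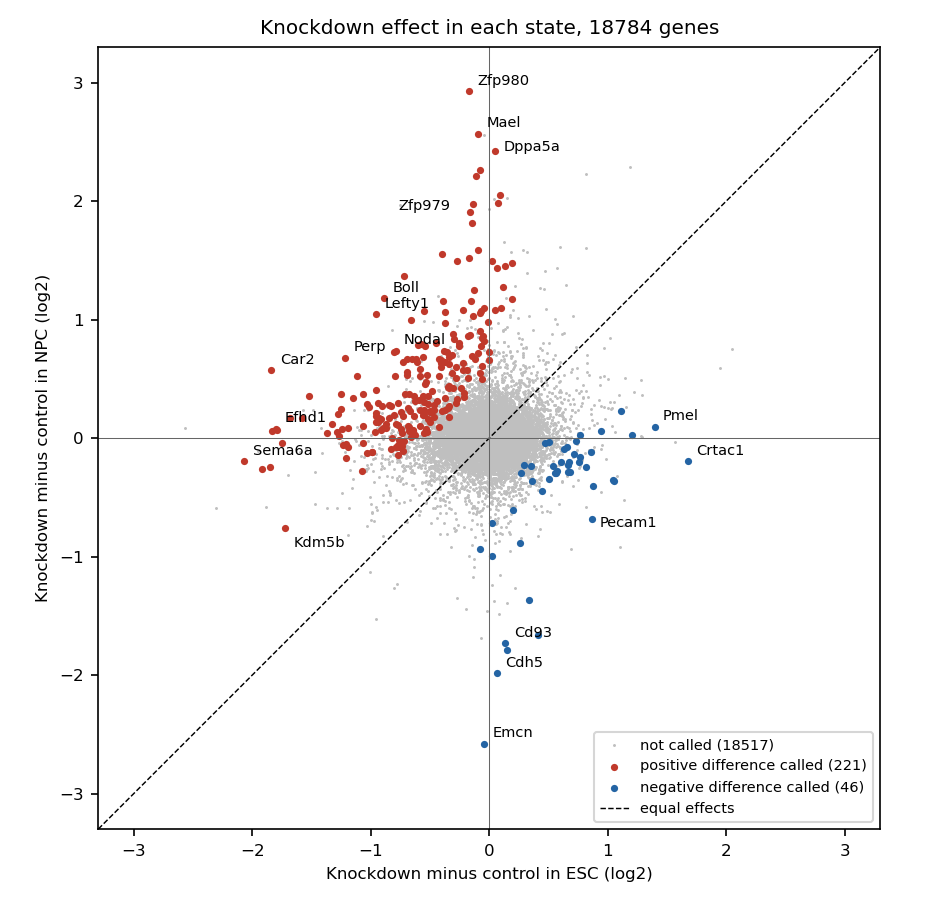
Each point is 1 of 18784 genes, with its knockdown minus control log2 difference in ESC on the horizontal axis and in NPC on the vertical axis; red and blue points are the 221 positive and 46 negative differences that passed, and the dashed line marks equal effects. Of the 221 red points 185 lie in the upper left field, with effects of opposite sign, which the choice by difference favours. Some points lie close to an axis, as for Mael (2.57 in NPC, -0.10 in ESC) and Efhd1 (0.08 in NPC, -1.80 in ESC).

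**Figure D2:**
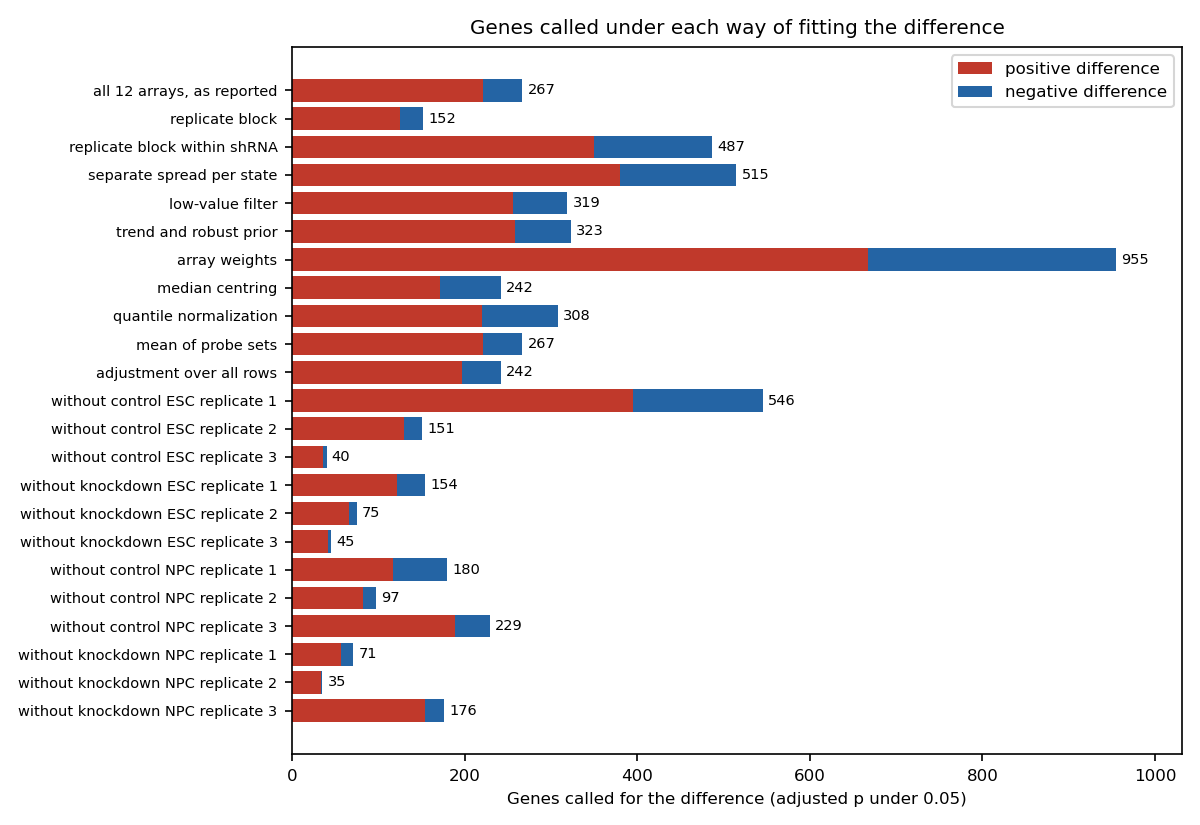
Bars give the number of genes whose difference passed in the reported fit and in each alternative fit, stacked as positive (red) and negative (blue). The reported count is 267, and the bars run from 35 without knockdown NPC replicate 2 to 955 with array weights.

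The differences were of 4 main kinds. These kinds use calls made from the same arrays as the difference, so they are counts only. Among the 221 positive genes, 65 rose in knockdown NPC with no call in ESC, 123 fell in knockdown ESC with no call in NPC, 4 passed in both in opposite directions, 1 (Kdm5b) fell in both, and 28 passed in neither state alone. Among the 46 negative genes, 34 rose in knockdown ESC with no call in NPC, 11 fell in knockdown NPC with no call in ESC, and 1, the endothelial gene Plvap, passed in neither. Of the 28 and 1 that passed in neither state, all had effects of opposite sign, as had 224 of all 267. Choosing genes by a large difference itself favours opposite signs, so these counts are no result about the genes. A rise or fall in 1 state only means below that the other state had no call, not that it had no effect. Of the 194 genes called in NPC (1.03% of those tested) 81 had a difference that passed, and of the 979 called in ESC (5.21%) 162 did, so for most of either set the difference itself was not shown.

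The 65 genes that rose in NPC only had a higher median level in ESC than in NPC. It was 9.98 in control ESC, 9.79 in knockdown ESC, 7.35 in control NPC and 8.45 in knockdown NPC. The 11 that fell in NPC only had the reverse order, with medians of 5.15, 5.32, 7.09 and 6.11 in the same order of groups. The 123 genes that fell in ESC only had medians of 9.10 and 8.23 in control and knockdown ESC and 8.38 and 8.63 in control and knockdown NPC. For the 34 that rose in ESC only these were 8.60, 9.36, 8.76 and 8.80. The count of 65 was between 15 (without knockdown NPC replicate 2) and 78 (without knockdown NPC replicate 3) when 1 array was left out, and that of 123 between 16 (without control ESC replicate 3 or knockdown NPC replicate 2) and 268 (without control ESC replicate 1). That of 11 was between 1 (without knockdown NPC replicate 2) and 45 (without control NPC replicate 1), and that of 34 between 1 (without knockdown ESC replicate 3 or knockdown NPC replicate 2) and 107 (without control ESC replicate 1).

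**Figure D3:**
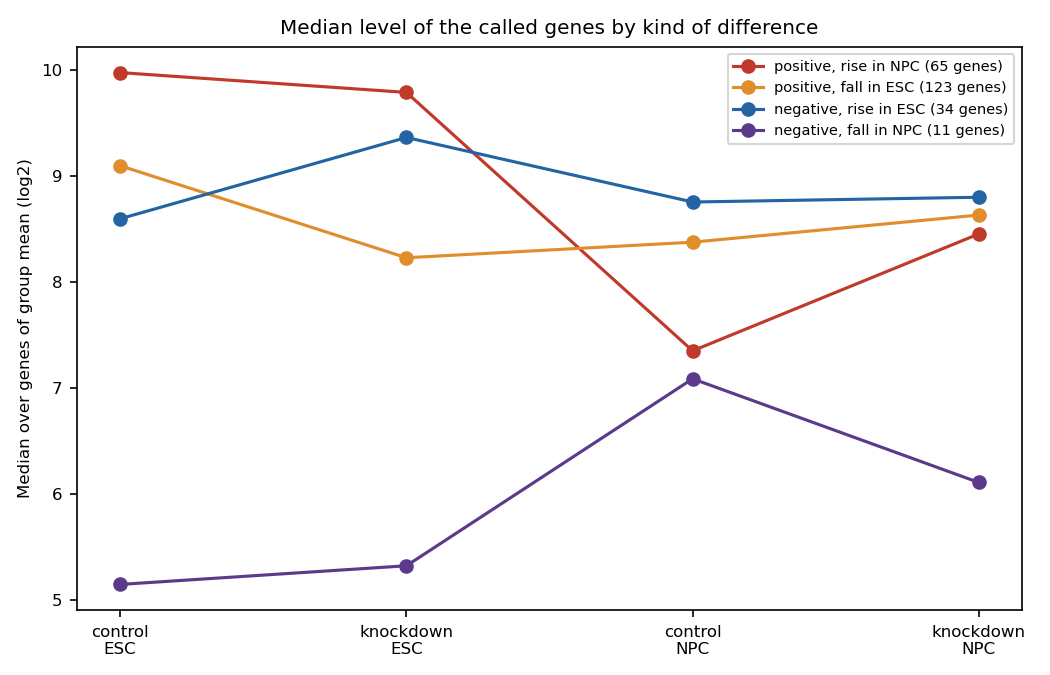
Points are medians over genes of the group mean level (log2) in the 4 groups, 1 line for each kind of difference. The line of the 65 genes that rose in NPC drops from 9.98 in control ESC to 7.35 in control NPC and only to 8.45 in knockdown NPC, and the 11 genes that fell in NPC peak at 7.09 in control NPC.

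Germ cell genes made up several of the largest positive differences. Of 26 germ cell regulators and piRNA pathway genes measured, 4 had a positive difference that passed and 0 a negative one, beside the 1.18% and 0.245% of all genes given above, and the median difference was 0.37 against -0.0067 for all genes. In the alternatives that leave out 1 array this count was 4 or 5, except without control ESC replicate 3, where it was 2. The 4 were Mael, Dazl, Ddx4 and Slc25a31. In the separate states 8 of the 26 rose in knockdown NPC (0.82% of all genes did), and 2 rose in knockdown ESC (1.84% of all genes).

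Mael, a germ cell factor of piRNA-guided transposon repression, read 10.86, 10.78 and 11.19 in control ESC and 10.69, 10.77 and 11.08 in knockdown ESC. In NPC it read 6.32, 6.89 and 6.83 in control and 9.73, 9.07 and 8.94 in knockdown arrays. The ESC groups overlapped, and the NPC groups were apart by more than 2 on the log2 scale. Its difference was 2.66 ± 0.29 (SE, adjusted p = 0.00227), a 6.34-fold ratio of the knockdown effects. Read the other way, NPC minus ESC for Mael was -4.26 in control and -1.60 in knockdown cells. In bulk RNA such as this, a change in the share of cells that express a gene and a change in its RNA per cell cannot be told apart. Dazl, a germ cell RNA-binding protein, differed by 1.91 ± 0.31, the germ cell helicase gene Ddx4 by 1.68 ± 0.25 and Slc25a31, the ADP/ATP carrier of the testis, by 1.95 ± 0.31 (SE). Dazl lost its call without control ESC replicate 3 (adjusted p = 0.0584), as did Slc25a31 (adjusted p = 0.0529).

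The promoters of these 4 genes are shown with that of Emcn, the gene with the largest negative difference, to set their motifs and base composition side by side. The sequences are RefSeq windows of build GRCm38.p6, from 250 bases before to 50 bases after the start of the gene, on the strand of the gene. Capitals mark CACGTG, the E-box, which reads the same on both strands, and TCCCGC or its reverse complement GCGGGA, an E2F motif; the 2 motifs do not overlap here. Mael lies on the minus strand (chr1:166238695-166238994), as do Dazl (chr17:50293571-50293870) and Ddx4 (chr13:112652261-112652560), and Slc25a31 (chr3:40708621-40708920) and Emcn (chr3:137340828-137341127) on the plus strand.
Mael: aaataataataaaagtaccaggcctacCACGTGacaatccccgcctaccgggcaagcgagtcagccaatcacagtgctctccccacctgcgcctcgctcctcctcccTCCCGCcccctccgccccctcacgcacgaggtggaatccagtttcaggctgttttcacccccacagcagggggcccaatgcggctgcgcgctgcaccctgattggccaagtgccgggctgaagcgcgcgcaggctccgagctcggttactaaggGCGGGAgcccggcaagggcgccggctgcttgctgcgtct
Dazl: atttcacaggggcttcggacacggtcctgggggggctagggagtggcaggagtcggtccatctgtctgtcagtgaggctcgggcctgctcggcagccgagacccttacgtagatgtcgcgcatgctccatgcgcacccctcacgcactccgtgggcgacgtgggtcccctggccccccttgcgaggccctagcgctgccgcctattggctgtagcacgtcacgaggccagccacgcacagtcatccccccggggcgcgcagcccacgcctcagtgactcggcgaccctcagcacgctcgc
Ddx4: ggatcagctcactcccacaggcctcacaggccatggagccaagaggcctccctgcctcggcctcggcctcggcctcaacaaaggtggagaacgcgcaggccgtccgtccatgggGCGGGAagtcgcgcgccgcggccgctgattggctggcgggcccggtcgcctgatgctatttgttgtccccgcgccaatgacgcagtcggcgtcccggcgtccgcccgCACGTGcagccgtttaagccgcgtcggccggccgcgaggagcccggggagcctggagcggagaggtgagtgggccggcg
Slc25a31: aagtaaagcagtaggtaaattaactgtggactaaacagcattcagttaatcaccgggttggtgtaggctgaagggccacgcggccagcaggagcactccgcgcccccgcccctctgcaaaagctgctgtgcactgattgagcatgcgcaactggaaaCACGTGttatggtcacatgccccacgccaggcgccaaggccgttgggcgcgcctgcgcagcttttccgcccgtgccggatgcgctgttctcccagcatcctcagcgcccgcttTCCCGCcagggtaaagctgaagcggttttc
Emcn: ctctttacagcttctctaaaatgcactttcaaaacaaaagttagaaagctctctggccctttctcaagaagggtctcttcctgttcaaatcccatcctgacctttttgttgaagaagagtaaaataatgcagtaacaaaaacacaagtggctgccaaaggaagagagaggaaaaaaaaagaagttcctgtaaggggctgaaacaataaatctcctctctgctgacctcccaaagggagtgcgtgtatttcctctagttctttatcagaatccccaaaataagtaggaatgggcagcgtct

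Mael, Ddx4 and Slc25a31 each held 1 E-box, with 2, 1 and 1 E2F motifs, and Dazl and Emcn held neither. The ratio of observed to expected CpG was 0.78, 0.80, 0.98 and 0.83 in Mael, Dazl, Ddx4 and Slc25a31 and 0.16 in Emcn. A RefSeq window was found for 15059 of the 18784 genes (18517 windows, median ratio 0.616), of which 8.27% held an E-box, 27.6% an E2F motif and 2.86% both. For the genes that rose in NPC only, 50 of 65 had windows (67 windows), with an E-box in 14.9%, an E2F motif in 34.3% and both in 7.46%. For those that fell in ESC only, 90 of 123 had windows (113 windows), with 9.73% and 40.7%. Of the 11 that fell in NPC only, 8 had windows (10 windows), none with either motif, and a median CpG ratio of 0.289. For the genes that rose in ESC only, 26 of 34 had windows (51 windows), with 3.92% and 45.1%. A motif match is a description of these letters, and no test was made. A gene with several windows counts once for each, so these are shares of windows and not of genes.

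Of 24 genes of meiotic cohesin, synapsis and recombination 2 passed, both positive (8.33%, beside 1.18% of all genes for positive differences), and the median difference was 0.37. An unadjusted p under 0.05 was found for 14 of the 24 (11 positive and 3 negative), and for 13 of the 26 germ cell genes above (all positive). For all 18784 genes this count was 2876. The 2 of the 24 that passed were Meioc, needed for meiotic prophase (2.08 ± 0.32, SE, adjusted p = 0.0151), and Tex11, a meiotic recombination gene of the X chromosome (0.85 ± 0.18, SE, adjusted p = 0.0427). Tex11 kept its call without control ESC replicate 1 or knockdown ESC replicate 3 and lost it without any other array (adjusted p up to 0.122). Stag3, the meiotic cohesin subunit, behaved otherwise, since it rose in both states, by 0.82 ± 0.13 in ESC and 1.60 ± 0.13 in NPC (SE), and its difference of 0.78 ± 0.18 (SE) did not pass (adjusted p = 0.0581). Boll, a germ cell RNA-binding protein of the Dazl family, read 6.87, 7.20 and 7.69 in control ESC, 6.42, 6.27 and 6.40 in knockdown ESC, 4.82, 4.57 and 5.10 in control NPC and 6.28, 5.86 and 5.89 in knockdown NPC. It fell in ESC (-0.89 ± 0.19) and rose in NPC (1.18 ± 0.19), without overlap in either state, and the difference was 2.07 ± 0.27 (SE, adjusted p = 0.00682). Dmrt1, a germ cell transcription factor chosen after its values were seen, differed by 1.77 ± 0.28 (SE, adjusted p = 0.0152).

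Of 30 pluripotency genes measured, 4 had a positive difference that passed (1.18% of all genes did) and 0 a negative one. The median was 0.41, and 8 of 30 differences lay below 0. In the separate states 7 rose in knockdown NPC (0.82% of all genes), and 1 rose and 1 fell in knockdown ESC (1.84% and 3.37% of all genes). The mean level of the list per array was 11.38 to 11.39 in control ESC, 11.36 to 11.42 in knockdown ESC, 7.24 to 7.59 in control NPC and 7.7 to 8.23 in knockdown NPC, with no overlap of the NPC groups (summed level 217.2 to 227.6 and 231.0 to 246.8). Its part in the differences of other genes was not tested. The count of 4 was 0 without knockdown NPC replicate 2, 1 without control ESC replicate 3 or knockdown ESC replicate 3, and 9 without knockdown NPC replicate 3. It was 2 without control ESC replicate 2, without either of the other knockdown ESC arrays, without control NPC replicates 1 or 3, or without knockdown NPC replicate 1.

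Dppa5a, a gene marking pluripotent cells, read 13.68, 13.74 and 13.68 in control ESC and 13.76, 13.72 and 13.77 in knockdown ESC. It read 7.28, 8.67 and 8.29 in control NPC and 10.92, 11.07 and 9.52 in knockdown NPC, apart but with a wide spread in both. Its difference was 2.38 ± 0.52 (SE, adjusted p = 0.0443), and the call was lost without any array but control ESC replicate 1 and knockdown NPC replicate 3 (adjusted p up to 0.117). Dppa2, which acts on promoters poised in pluripotent cells, differed by 2.34 ± 0.39 (SE, adjusted p = 0.0185) from a level of 4.04 to 4.81 in control NPC, near the floor. Klf2, a transcription factor of the naive state, differed by 0.99 ± 0.15, and Utf1, a chromatin-associated gene, by 1.37 ± 0.30 (SE). Dppa2 lost its call without control ESC replicate 3 (adjusted p = 0.0623), knockdown ESC replicate 3 (0.0615) or knockdown NPC replicate 2 (0.0512), and Klf2 without the last of these (0.0505). Utf1 kept its call only when the array left out was control ESC replicate 1, control NPC replicate 2 or knockdown NPC replicate 3 (adjusted p up to 0.115 otherwise).

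The core factors did not pass. Nanog, chosen after its values were seen, read 4.70, 6.45 and 6.53 in control NPC and 8.74, 8.50 and 6.53 in knockdown NPC, so the third knockdown array lay at the control level. Its difference was 1.88 ± 0.74 (SE, adjusted p = 0.244). Pou5f1 read 7.67, 7.11 and 6.37 in knockdown NPC, again with the third array within the control range, and differed by 1.06 ± 0.35 (SE, adjusted p = 0.168). Sox2, which both states express, differed by -0.18 ± 0.15 (SE, 95% interval -0.50 to 0.13).

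Other genes with large positive differences rose in NPC from a high ESC level. Zfp980, a zinc finger gene, read 11.73, 12.01 and 12.04 in control ESC, 11.88, 11.78 and 11.60 in knockdown ESC, 3.61, 6.15 and 4.57 in control NPC and 7.84, 7.87 and 7.40 in knockdown NPC. Its NPC groups did not overlap, but control NPC spread widely, near or below the floor. The difference was 3.10 ± 0.61 (SE, adjusted p = 0.0356), a size that rests on those control NPC readings. The call was kept only when the array left out was control ESC replicate 1, control NPC replicates 1 or 2 or knockdown NPC replicate 3 (adjusted p up to 0.101 otherwise). Zfp979, of the same family, differed by 2.11 ± 0.16 (SE, adjusted p = 0.000206), the smallest p among the named genes. The probes of these near-identical genes may pick up each other's RNA, so their values are not independent and which gene they belong to is uncertain.

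Dnmt3l, a cofactor of the de novo DNA methyltransferases, differed by 2.33 ± 0.33 (SE, adjusted p = 0.0092), with levels of 6.07, 6.5 and 6.14 in control NPC and 8.95, 8.65 and 7.75 in knockdown NPC. Upp1, an enzyme of uridine breakdown, differed by 1.96 ± 0.21 and the histone gene H2ac1 by 2.07 ± 0.22 (SE, both adjusted p = 0.00227), the latter uncertain because H2A genes are alike in sequence. H2ac1 read 10.10, 10.20 and 9.97 in control NPC and 12.14, 12.01 and 11.84 in knockdown NPC, close to its ESC readings of 11.62 to 12.30. So from ESC to NPC it fell by 2.01 ± 0.15 in control cells and moved by 0.06 ± 0.15 (SE) in knockdown cells.

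**Figure D4:**
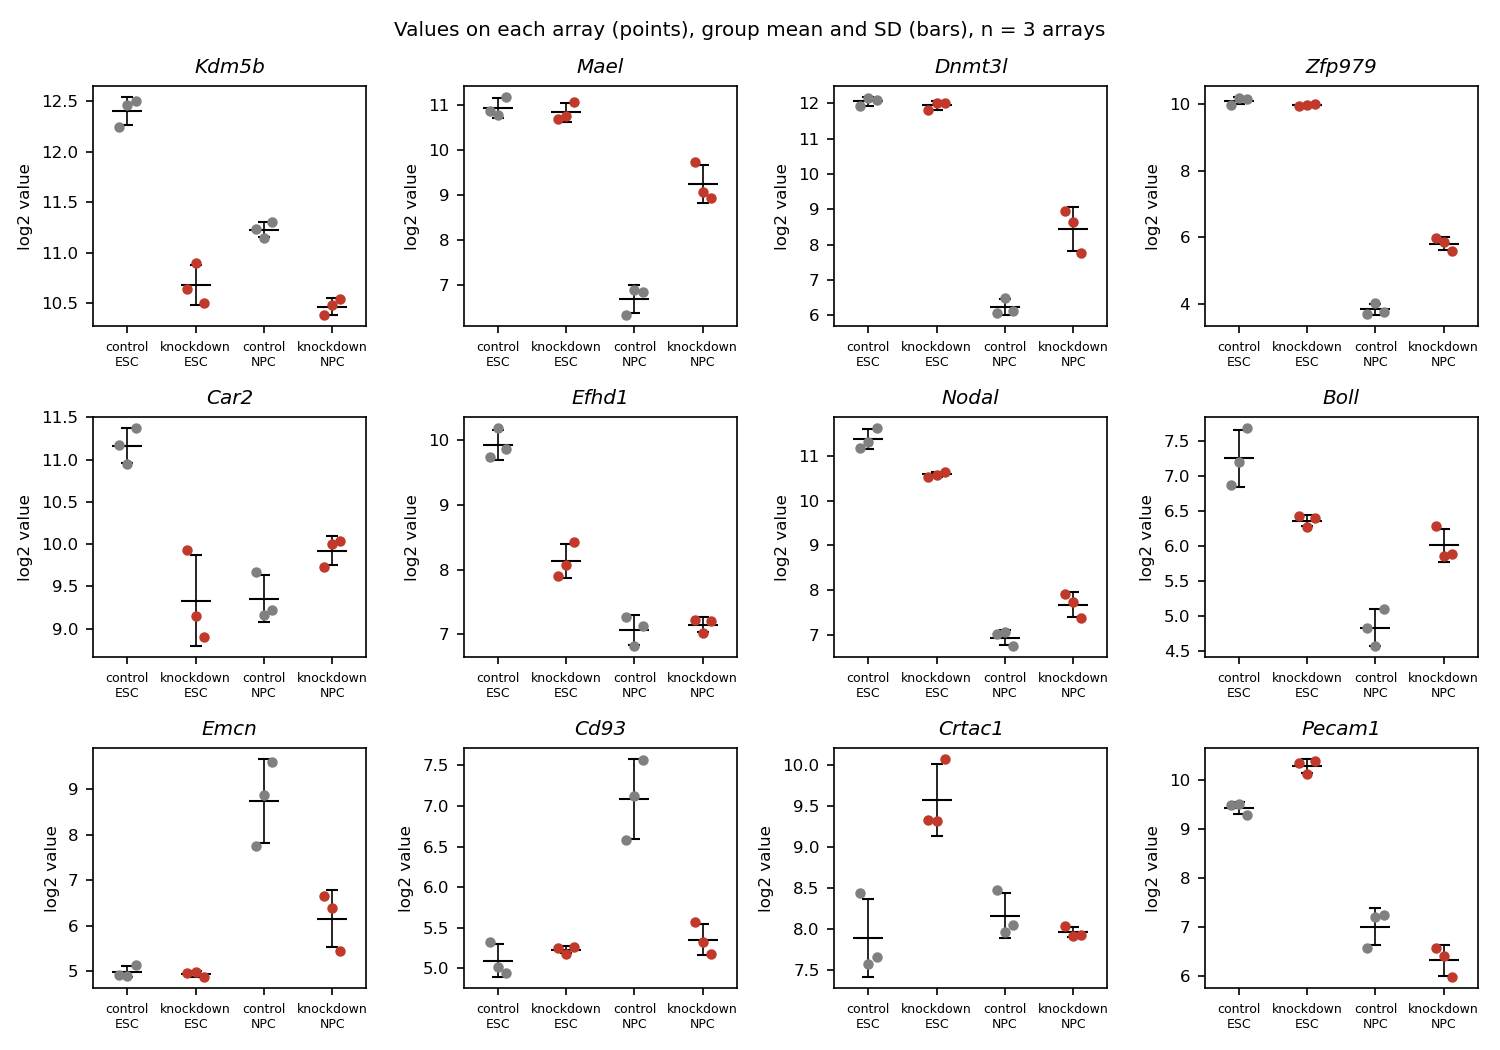
Points are the log2 values of 12 genes on each array, in grey for control and red for knockdown, with the group mean and SD as bars (n = 3 arrays); the vertical scales differ between panels. Mael, Dnmt3l and Zfp979 differ between control and knockdown in NPC only, Car2 and Efhd1 mainly in ESC, and Nodal and Boll in opposite directions.

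Car2, a carbonic anhydrase that handles carbon dioxide and bicarbonate, led the genes whose fall was called in ESC only. It read 11.17, 10.95 and 11.37 in control ESC and 9.93, 9.15 and 8.90 in knockdown ESC, against 9.67, 9.16 and 9.22 in control NPC and 9.73, 10 and 10.04 in knockdown NPC. The groups did not overlap in either state and lay in opposite order. The difference was 2.41 ± 0.32 (SE, adjusted p = 0.00682), made of -1.84 ± 0.22 in ESC and 0.57 ± 0.22 in NPC (SE, adjusted p = 0.391). Car3, its neighbour on the chromosome, fell in ESC by 1.85 and differed by 1.61 ± 0.27 (SE). Efhd1, a calcium-binding protein gene of mitochondria, differed by 1.88 ± 0.22 (SE, adjusted p = 0.00407), and Sema6a, a semaphorin of axon guidance, by 1.87 ± 0.30 (SE, adjusted p = 0.0172). Car3, Efhd1 and Sema6a were chosen after their values were seen. The call of Sema6a was lost without knockdown NPC replicate 2 (adjusted p = 0.0505), and that of Car3 without the same array, control ESC replicate 3 or knockdown ESC replicates 2 or 3 (adjusted p up to 0.0617).

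The next list holds formative and primed genes, which come on as stem cells leave the naive state and prepare for lineages. Of 19 measured, 9 fell in knockdown ESC (3.37% of all genes did). In knockdown NPC 1 rose and 0 fell by limma's test (0.82% and 0.213% of all genes). The difference passed as positive for 5 and as negative for 0 (1.18% and 0.245% of all genes), and its median was 0.64. At an unadjusted p under 0.05 these counts were 11 and 0, beside 2876 of all 18784 genes in either direction. The 5 were Nodal, a signalling protein that keeps primed cells pluripotent, its antagonist Lefty1 (2.00 ± 0.36), the DNA methyltransferase gene Dnmt3b (1.12 ± 0.24), the transcription factor gene Sall2 (1.16 ± 0.25) and the tight junction gene Cldn6 (1.15 ± 0.23, all SE). Nodal alone of the 5 passed whichever array was left out. With 1 array left out the count was 1 to 3, except 9 without control ESC replicate 1. It was 1 without control ESC replicate 3, knockdown ESC replicates 2 or 3, control NPC replicate 2 or knockdown NPC replicate 1. Trophoblast and simple epithelium genes had a like median of 0.58 over 15 genes, with 0 calls by limma. Of these 15, 7 had an unadjusted p under 0.05, all positive, beside the same 2876 of all genes.

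Nodal was among 4 genes called in both states in opposite directions. It read 11.18, 11.32 and 11.63 in control ESC and 10.53, 10.58 and 10.65 in knockdown ESC, against 7.01, 7.05 and 6.74 in control NPC and 7.91, 7.74 and 7.37 in knockdown NPC. The groups did not overlap in either state, and the difference was 1.53 ± 0.21 (SE, adjusted p = 0.00738). Ovol1, a zinc finger factor of epithelia, read 6.53, 7.10 and 7.10 in control ESC, 6.18, 6.40 and 6.45 in knockdown ESC, 5.76, 5.95 and 5.84 in control NPC and 6.69, 6.47 and 6.44 in knockdown NPC. Sqor, a mitochondrial sulfide oxidase, read 5.13, 5.32 and 5.26, then 4.91, 4.81 and 4.72, then 5.75, 5.49 and 5.72, then 6.37, 6.16 and 6.02 in the same order of groups. Their groups were also apart in both states, though Sqor lay near the floor in ESC and in control NPC. The differences were 1.25 ± 0.20 for Ovol1 and 0.95 ± 0.15 for Sqor (SE, both adjusted p = 0.0172). Both lost the call when knockdown NPC replicate 2 (adjusted p = 0.0505) or control ESC replicate 3 (0.0584) was left out, and Sqor also without knockdown ESC replicate 3 (0.0590). The number of such genes was 0 without control ESC replicate 3, knockdown ESC replicates 2 or 3, control NPC replicate 2 or knockdown NPC replicate 1, 1 without knockdown NPC replicate 2, 2 without control ESC replicate 2, knockdown ESC replicate 1 or control NPC replicate 3, 8 without knockdown NPC replicate 3 and 18 without control ESC replicate 1.

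Genes of the p53 pathway, which arrests or removes damaged cells, had the highest share of calls among the 23 lists. Of 18 measured, 6 had a positive difference that passed and 0 a negative one (1.18% and 0.245% of all genes), and 16 of 18 differences lay above 0, with a median of 0.56. They were Perp (1.90 ± 0.25), a membrane protein of desmosomes, the growth inhibitor Btg2 (1.24 ± 0.21), Ddit4l (1.19 ± 0.25), the death receptor gene Eda2r (1.09 ± 0.21), Phlda3 (1.04 ± 0.21) and Trp53inp1 (0.84 ± 0.15, all SE). Perp was called lower in ESC (-1.22 ± 0.18) and read 0.68 ± 0.18 in NPC (SE, adjusted p = 0.113). The list mean per array was 10 to 10.25 in control and 9.79 to 9.84 in knockdown ESC, and 9.58 to 9.76 in control and 9.97 to 10.10 in knockdown NPC, without overlap in either state. Only Perp of the 6 passed whichever array was left out, and the count was 1 without knockdown ESC replicate 3 or knockdown NPC replicate 2, 2 without control ESC replicate 3, knockdown ESC replicate 2 or knockdown NPC replicate 1, and 3 without control NPC replicate 1. Ddit4l, Eda2r and Phlda3 lie outside the rule for naming genes and were chosen after their values were seen.

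Immediate early, SRF and YAP target genes, which respond to growth factors and to tension, had 4 positive calls of 24 and 0 negative ones, beside 1.18% and 0.245% of all genes, with a median of 0.43. In knockdown ESC 8 of the 24 fell (3.37% of all genes). The 4 called for the difference fell in ESC only, namely the matricellular genes Ccn1 (difference 1.85 ± 0.35) and Ccn2 (1.29 ± 0.27), the transcription factor gene Klf6 (1.01 ± 0.21) and the junction gene Amotl2 (0.69 ± 0.15, all SE). In NPC their effects were between 0.02 and 0.10. Amotl2 lies outside the rule for naming genes and was chosen after its values were seen. No member passed without control ESC replicate 3, knockdown ESC replicates 2 or 3, control NPC replicate 2 or knockdown NPC replicates 1 or 2, 1 or 2 passed without control ESC replicate 2, control NPC replicates 1 or 3 or knockdown NPC replicate 3, and 7 without knockdown ESC replicate 1.

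Of the Id genes, which hold back differentiation and are targets of BMP signalling, Id1, Id2 and Id3 fell in knockdown ESC only and had a positive difference that passed. Id4 had a difference of -0.19 ± 0.17 (SE, adjusted p = 0.640). All 4 were chosen after their values were seen. Id3 read 9.27, 9.93 and 10.32 in control ESC, 8.48, 8.32 and 8.15 in knockdown ESC, 9.97, 10.34 and 10.36 in control NPC and 10.59, 10.60 and 10.55 in knockdown NPC. The groups were apart in both states and in opposite order, and the difference was 1.88 ± 0.29 (SE, adjusted p = 0.0151). Id1 differed by 1.45 ± 0.29 and Id2 by 0.98 ± 0.22 (SE), and these 2 lost the call without most single arrays (adjusted p up to 0.0998 and 0.141), among them control ESC replicates 2 and 3 and every knockdown ESC array. The FGF feedback genes Dusp6 (0.66 ± 0.15) and Spry4 (0.87 ± 0.18, SE), also chosen after their values were seen, fell in ESC only. Dusp6 kept its call only when the array left out was knockdown ESC replicate 1 or control NPC replicate 3, and Spry4 only when it was control ESC replicate 1 or control NPC replicate 3 (adjusted p up to 0.133 and 0.103 otherwise).

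Endothelial genes were among the largest negative differences, with Emcn first. Of 34 measured, 6 had a negative difference that passed and 0 a positive one, beside 0.245% of all genes for negative differences, and 31 of 34 lay below 0, with a median of -0.63. In the separate states 9 fell in NPC (0.213% of all genes did) and none rose there, and 2 rose in ESC (1.84% of all genes did). The list mean per array was 7.0 to 7.17 in control ESC and 7.12 to 7.23 in knockdown ESC, and 7.12 to 7.69 in control NPC and 6.70 to 6.92 in knockdown NPC. The NPC groups did not overlap (summed level 242.1 to 261.3 and 227.9 to 235.3). The count was 12 without control NPC replicate 1 and 11 without control ESC replicate 1. It was 1 without control ESC replicate 3, knockdown ESC replicate 3 or knockdown NPC replicate 2, 2 without knockdown ESC replicate 2 or control NPC replicate 2, and 3 without control ESC replicate 2, knockdown ESC replicate 1 or knockdown NPC replicate 3.

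Emcn, which encodes the endothelial surface protein endomucin, read 4.93, 4.91 and 5.13 in control ESC and 4.97, 5.0 and 4.87 in knockdown ESC, all near the floor. It read 7.76, 8.87 and 9.58 in control NPC and 6.64, 6.39 and 5.44 in knockdown NPC. The NPC groups did not overlap, and both spread widely. The difference was -2.53 ± 0.52 (SE, 95% interval -3.67 to -1.40, adjusted p = 0.0397). The rise from ESC to NPC was 3.75 ± 0.37 in control and 1.21 ± 0.37 in knockdown cells (SE). The call held without control ESC replicate 1 or control NPC replicates 1 or 3 and was lost without any other array (adjusted p up to 0.0998).

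Cdh5, the cadherin of endothelial junctions, read 6.59, 6.42 and 6.34 in control ESC, 6.51, 6.60 and 6.43 in knockdown ESC, 8.26, 9.70 and 9.25 in control NPC and 7.50, 7.15 and 6.61 in knockdown NPC. Rasgrp3, a Ras exchange factor, read 5.29, 5.05 and 5.12, then 5.28, 5.35 and 5.28, then 5.90, 7.28 and 7.11, then 5.03, 5.07 and 4.84 in the same order. In both genes the groups overlapped in ESC and were apart in NPC, and Rasgrp3 in knockdown NPC lay at its ESC level. The differences were -2.05 ± 0.41 for Cdh5 (adjusted p = 0.0370) and -1.93 ± 0.37 for Rasgrp3 (SE, adjusted p = 0.0314). Cdh5 kept its call only when the array left out was control ESC replicate 1, control NPC replicate 1 or knockdown NPC replicate 1, and Rasgrp3 only when it was control ESC replicate 1 or control NPC replicates 1 or 3 (adjusted p up to 0.103 and 0.0877 otherwise).

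Cd93, an endothelial surface glycoprotein, read 4.94 to 5.33 in all ESC arrays and 5.18 to 5.57 in knockdown NPC, all near the floor, and 6.58, 7.12 and 7.56 in control NPC. It differed by -1.87 ± 0.28 (SE, adjusted p = 0.0143) and passed whichever array was left out. The endothelial GTPase gene Rhoj differed by -1.70 ± 0.31 (SE, adjusted p = 0.0239), and lost the call without control ESC replicate 3, knockdown ESC replicates 2 or 3, control NPC replicate 2 or knockdown NPC replicate 2 (adjusted p up to 0.0709). Pecam1, an adhesion protein of endothelial cells that stem cells also carry, differed by -1.55 ± 0.26 (SE, adjusted p = 0.0185), with a call in ESC and none in NPC. In ESC it rose from 9.29 to 9.52 in control to 10.14 to 10.40 in knockdown arrays. In NPC it read 6.56 to 7.24 in control and 5.96 to 6.57 in knockdown arrays. These ranges barely overlapped, and the lower knockdown level in NPC added to the difference. It no longer passed without control ESC replicate 3 (adjusted p = 0.0635), knockdown ESC replicate 3 (0.0625) or knockdown NPC replicate 2 (0.051).

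Sparcl1, a matrix protein made by vessel and glial cells and counted here with the mesenchyme genes, read 5.76, 5.43 and 5.36 in control ESC, 6.16, 5.90 and 5.73 in knockdown ESC, 8.63, 9.0 and 9.57 in control NPC and 7.86, 7.31 and 7.03 in knockdown NPC. Its NPC groups were apart, and the difference was -2.08 ± 0.33 (SE, adjusted p = 0.0172), lost without control ESC replicate 3 (0.0584) or knockdown NPC replicate 2 (0.0512). It was the 1 call among 25 fibroblast, mesenchyme and neural crest genes (4%, beside 1.42% of all genes), whose median was -0.42. An unadjusted p under 0.05 was found for 16 of the 25 (13 negative and 3 positive), beside 2876 of all 18784 genes. Of 21 haemangioblast and blood genes 1 passed (4.76%, beside the same 1.42%), the embryonic globin gene Hbb-y (-1.15 ± 0.21, SE, adjusted p = 0.0239). The blood list mean per array was 6.90 to 7.03 in control and 6.72 to 6.80 in knockdown NPC. Bmp5, a growth factor of mesoderm, differed by -1.02 ± 0.21, and the somite factor gene Tcf15 by 0.91 ± 0.12 (SE). These were the 2 calls among 21 mesoderm genes (9.52%, beside 1.42%), and they lay in opposite directions. Hbb-y and Bmp5 lost their calls without several single arrays, control ESC replicate 3 among them (adjusted p up to 0.0715 and 0.101). How far the endothelial, blood and mesenchyme levels bear on one another was not tested.

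The other large negative differences had a rise called in knockdown ESC. Crtac1, a matrix protein gene, read 8.44, 7.58 and 7.66 in control and 9.33, 9.32 and 10.07 in knockdown ESC and 7.92 to 8.48 in all NPC arrays, a difference of -1.88 ± 0.34 (SE, adjusted p = 0.0239). The gastric protease precursor gene Pgc (-1.41 ± 0.29), the complement factor gene Cfp (-1.40 ± 0.27), the melanosome gene Pmel (-1.30 ± 0.28) and Phyhd1 (-1.29 ± 0.25, all SE) also rose in ESC only. Crtac1 lost its call without control ESC replicate 3, knockdown ESC replicate 3 or knockdown NPC replicates 1 or 2 (adjusted p up to 0.0709). The other 4 lost it without control ESC replicate 3, knockdown ESC replicate 3 or knockdown NPC replicate 2, and without further single arrays (adjusted p up to 0.12).

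Of 33 neural progenitor and radial glia genes, 3 had a difference that passed (9.09%, beside 1.42% of all genes). It was positive for 2, the cadherin gene Cdh2 (0.87 ± 0.16) and the transcription factor gene Sox11 (0.71 ± 0.15), and negative for 1, the adhesion gene Ncam1 (-0.92 ± 0.18, all SE). All 3 were called in ESC and not in NPC. In the separate states 6 of the 33 fell and 2 rose in knockdown ESC (3.37% and 1.84% of all genes), and 0 passed in NPC. Differences lay above 0 for 19 and below 0 for 14, the list median was 0.03, and its mean per array was 10.43 to 10.50 in control NPC and 10.33 to 10.43 in knockdown NPC. Pax6 fell in ESC (-0.91 ± 0.20, SE) and differed by 0.65 ± 0.28 (SE, adjusted p = 0.283). Nes and Sox1 differed by 0.02 ± 0.25 and -0.19 ± 0.31 (SE, 95% intervals -0.52 to 0.56 and -0.85 to 0.48). Cdh2, Sox11 and Ncam1 each lost the call without control ESC replicate 3, knockdown ESC replicate 3 or knockdown NPC replicate 2, and Sox11 and Ncam1 without others too (adjusted p up to 0.101). Of 39 neuronal genes 7 fell in knockdown ESC (3.37% of all genes did). The difference passed for 1 (2.56%, beside 1.42% of all genes), the growth cone gene Crmp1 (1.07 ± 0.23, SE, adjusted p = 0.0414). Of 38 Hox genes it passed for 1 (2.63%, beside the same 1.42%), Hoxc13 (0.79 ± 0.17, SE, adjusted p = 0.0437). Single calls in lists of this size are not results about the lists. Crmp1 kept its call only when the array left out was control ESC replicate 1, knockdown ESC replicate 2 or control NPC replicate 1, and Hoxc13 only when it was control ESC replicate 2 or control NPC replicate 3 (adjusted p up to 0.118 and 0.129 otherwise).

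The next list holds 19 H3K4 methyltransferases, subunits of their complexes and histone demethylases other than Kdm5b. None passed limma's test, with differences from -0.79 to 0.69 and a median of 0.03. At an unadjusted p under 0.05 there was 1 of the 19, beside 2876 of all 18784 genes. In the separate states 2 of them fell in knockdown ESC (3.37% of all genes did), namely the demethylase genes Kdm2b and Kdm1b. Kdm2b, with the smallest p of the list, had an ESC effect of -0.73 ± 0.15 (SE, adjusted p = 0.0167) and a difference of 0.69 ± 0.21 (SE, adjusted p = 0.139). The H3K4 methyltransferase gene Kmt2d differed by -0.73 ± 0.36 and Setd7 by 0.36 ± 0.18 (SE, adjusted p = 0.371 and 0.359). Of 13 DNA methylation genes 2 passed (15.4%, beside 1.42% of all genes), Dnmt3l and Dnmt3b, the first with a rise called in NPC and the second with a fall called in ESC. Of 18 imprinted genes 1 passed (5.56%, beside 1.42% of all genes), Peg10 (0.72 ± 0.16, SE, adjusted p = 0.0480). When 1 array was left out, Peg10 kept its call only without control ESC replicate 1 (adjusted p up to 0.141 otherwise). Of 19 interferon response genes 1 passed (5.26%, beside 1.42% of all genes), Oasl2 (1.24 ± 0.27, SE, adjusted p = 0.0452). The interferon-inducible GTPase gene Gbp2 had 2.65 ± 0.65 (SE, adjusted p = 0.0683), a value that may share probes with its near copies. Oasl2 kept its call only when the array left out was control ESC replicate 2 or knockdown NPC replicate 3 (adjusted p up to 0.13 otherwise).

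No member passed limma's test in 5 further lists. Of 31 replication, mitosis and cell cycle genes 9 had an unadjusted p under 0.05 (median difference 0.16), of 18 retinoic acid genes 6 (-0.04), of 18 Wnt pathway genes 5 (0.06), of 17 endoderm genes 2 (-0.08) and of 13 glial genes 1 (-0.04). For all 18784 genes this count was 2876, a share that the endoderm and glial lists did not exceed. In the cell cycle list the cyclin gene Ccne1 had the smallest p, with 0.48 ± 0.12 (SE, adjusted p = 0.0635). Lef1, a Wnt pathway transcription factor, had a difference of 1.71 ± 0.46 (SE, adjusted p = 0.0886), from arrays between 8.99 and 10.36 in control and 7.21 and 8.07 in knockdown ESC. Crabp1, a retinoic acid binding protein, had -0.85 ± 0.22 (SE, adjusted p = 0.0845).

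**Figure D5:**
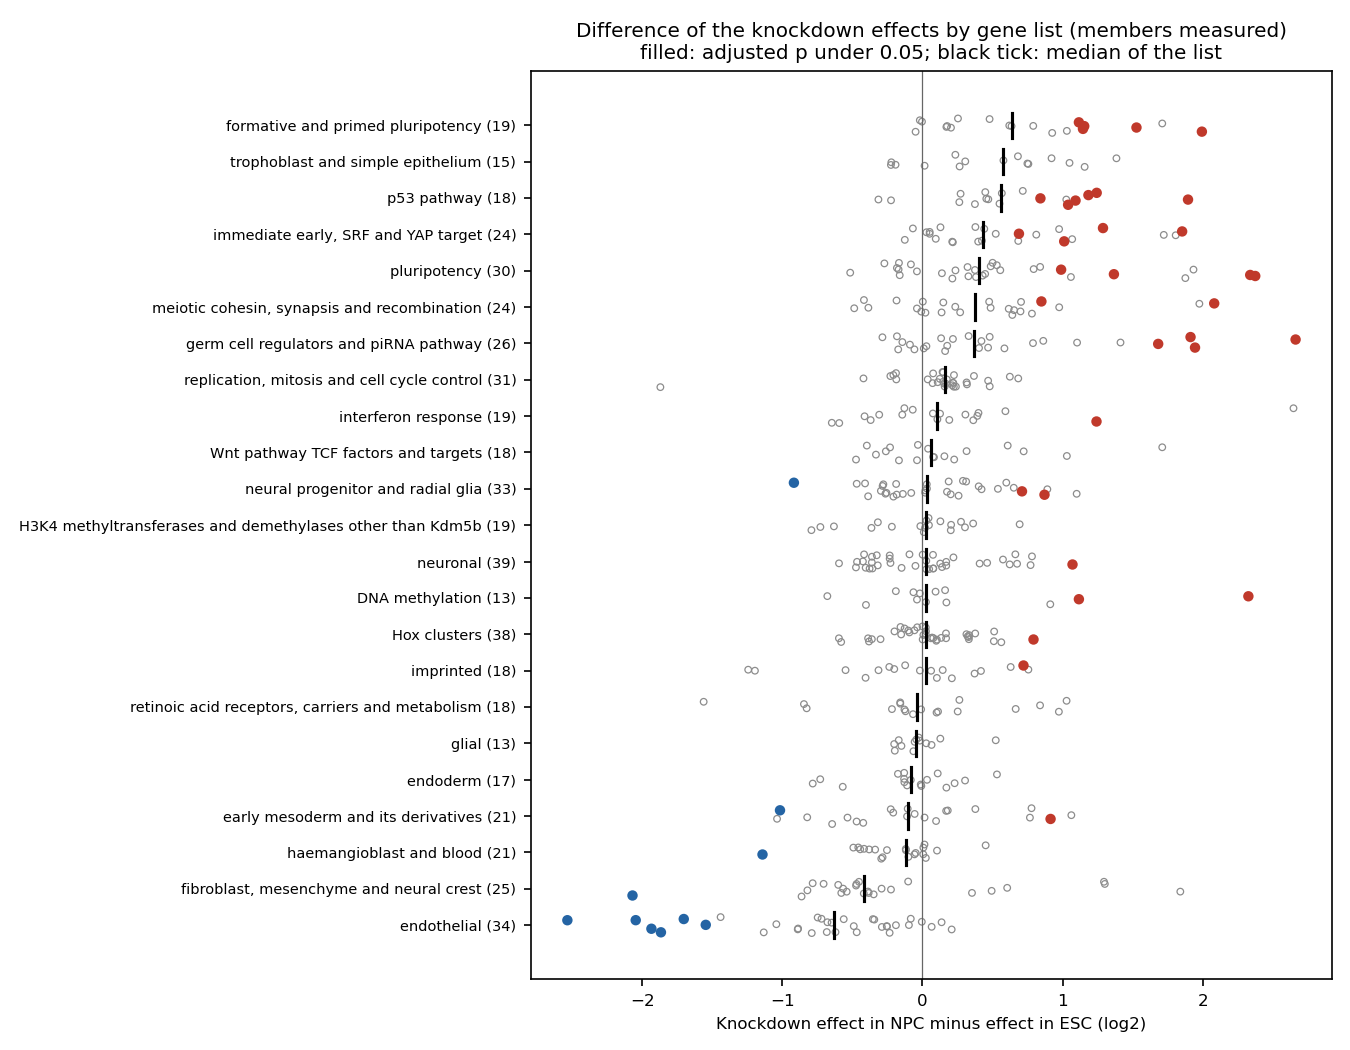
Each point is 1 measured member of a list, placed by its difference of the knockdown effects (log2, NPC minus ESC); filled points passed at an adjusted p under 0.05 and black ticks are list medians. Medians run from -0.63 for the endothelial list to 0.64 for the formative and primed list, and no other list than the p53 list has as many as 6 filled red points.

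A few genes moved alike in both states. Both effects passed in the same direction for 13 genes, 5 higher and 8 lower, and Kdm5b was the only one of them whose difference also passed. Dlk1, an imprinted regulator of Notch signalling, fell by 0.69 in ESC and 0.71 in NPC, a difference of -0.02 ± 0.19 (SE, 95% interval -0.42 to 0.39). Cox7a1, a subunit of the respiratory chain, rose by 0.70 and 1.03, a difference of 0.33 ± 0.24 (SE, 95% interval -0.18 to 0.83). The count of 13 was 4 without control ESC replicate 3 or knockdown NPC replicate 2, 6 and 8 without knockdown ESC replicates 3 and 2, and 20 and 23 without control NPC replicate 1 and control ESC replicate 1.

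When 18773 genes were ordered along the chromosomes of build GRCm38.p6, 2.26% of the neighbours of called genes were called themselves, beside 1.42% of all genes. These made 6 pairs. Among them, Parp9 and Dtx3l, partner proteins of the DNA damage response, differed by 0.88 ± 0.15 and 1.12 ± 0.22 (SE), both through a rise in NPC, and were chosen after their values were seen. Parp9 lost its call without control ESC replicate 3, knockdown ESC replicate 3, control NPC replicate 2 or knockdown NPC replicates 1 or 2, and Dtx3l without every array but control ESC replicate 1, control NPC replicates 1 and 3 and knockdown NPC replicate 2 (adjusted p up to 0.0715 and 0.103).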

How the data were processed

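RNA of 12 samples was hybridised to Affymetrix mouse gene arrays, 3 for each of 4 groups. Each probe set has 1 deposited log2 value on every array. The authors used affy, RMA (background correction, quantile normalization and summary of probes) and limma, per the submitters' processing notes. Their versions and the genome build were not given in the sources used here. Array medians were 7.70 to 7.79. Detection calls were not used here, and precision is limited by the number of arrays.

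The platform annotation gave 1 gene symbol for 18786 of 21212 probe sets, several for 6, and did not list 2420, which stay unnamed. Symbols were checked through Entrez IDs against RefSeq (GRCm38.p6): 18775 matched and 0 changed. The probe set with the highest mean was kept, which concerned 2 genes. All 12 arrays entered 1 linear model with a mean for each group (limma 3.58.1, R 4.3.3; 8 residual and 4.81 prior degrees of freedom). The median SE of the difference was 0.162, against 0.114 for the effect in 1 state. Tests were two-sided, adjusted by Benjamini-Hochberg over 18784 genes.

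Members, the 23 gene lists and motifs were chosen with earlier results of these data known, so list counts are no independent evidence. Named genes were Kdm5b, the 12 largest called differences each way, up to 6 genes called in both states in opposite and 4 in the same direction, and up to 3 members of each list with the smallest p, passing over unnamed gene models; values are printed for those called and for some of the others. Many genes outside this rule are said to be so where they appear, but not all. Plvap, Sox1 and Sox2 are among those not marked there. The 22 alternative fits were a replicate block, a block within each shRNA, separate spread per state, a filter on low values, a trend and robust prior, quantile normalization, median centring, array weights, adjustment over all rows, the mean of probe sets, and leaving out each of 12 arrays. On simulated data for 18784 genes with 200 changed, 79.5% of true differences of 1 and 98.0% of 2 were recovered, with 7 and 15 false calls. There the change was put in knockdown NPC, no other gene had a knockdown effect, and noise was normal and independent between genes and arrays. Deviations shared by the genes of an array were not simulated, so these shares need not hold for the data. Within groups, at most 0.33% of values were identical between arrays, and none was taken for a copy.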

Additional observations from a re-analysis of the deposited data

Results flagged for a closer look

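The named genes below differed between ESC and NPC in the effect of the knockdown by limma's test of the difference itself (adjusted p under 0.05); values are log2, NPC minus ESC, with errors in the report. Kdm5b, the targeted gene, stood at 0.96. Among germ cell and meiosis genes the differences were 2.66 for Mael, 2.08 for Meioc, 2.07 for Boll, 1.95 for Slc25a31, 1.91 for Dazl, 1.77 for Dmrt1, 1.68 for Ddx4 and 0.85 for Tex11. Among genes of pluripotent cells they were 2.38 for Dppa5a, 2.34 for Dppa2, 2.33 for Dnmt3l, 1.37 for Utf1 and 0.99 for Klf2, and among formative and primed genes 2.00 for Lefty1, 1.53 for Nodal, 1.16 for Sall2, 1.15 for Cldn6 and 1.12 for Dnmt3b. The zinc finger genes Zfp980 and Zfp979 had 3.10 and 2.11, and H2ac1 and Upp1 had 2.07 and 1.96.

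Genes of the p53 pathway had 1.90 (Perp), 1.24 (Btg2), 1.19 (Ddit4l), 1.09 (Eda2r), 1.04 (Phlda3) and 0.84 (Trp53inp1). Genes whose fall was called in ESC only had 2.41 (Car2), 1.88 (Efhd1), 1.88 (Id3), 1.87 (Sema6a), 1.85 (Ccn1), 1.61 (Car3), 1.45 (Id1), 1.29 (Ccn2), 1.24 (Oasl2), 1.07 (Crmp1), 1.01 (Klf6), 0.98 (Id2), 0.91 (Tcf15), 0.87 (Cdh2), 0.87 (Spry4), 0.72 (Peg10), 0.71 (Sox11), 0.69 (Amotl2) and 0.66 (Dusp6). Of the others, Ovol1 had 1.25, Dtx3l 1.12, Sqor 0.95, Parp9 0.88 and Hoxc13 0.79.

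Negative differences were -2.53 for Emcn, -2.05 for Cdh5, -1.93 for Rasgrp3, -1.87 for Cd93, -1.70 for Rhoj and -1.55 for Pecam1 among endothelial genes. Sparcl1 had -2.08, Hbb-y -1.15 and Bmp5 -1.02. Genes whose rise was called in ESC only had -1.88 (Crtac1), -1.41 (Pgc), -1.40 (Cfp), -1.30 (Pmel), -1.29 (Phyhd1) and -0.92 (Ncam1).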

How the results depend on the processing

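Against 267 calls (221 positive and 46 negative), array weights gave 955 (667 and 288), separate spread per state 515 (380 and 135), an adjusted p under 0.01 gave 18 (18 and 0, with 2876 at an unadjusted p under 0.05), and a minimum difference of 1 gave 133 (117 and 16). Negative calls were 70 with median centring and 88 after quantile normalization. Leaving out 1 array gave 35 to 546 calls, 33 to 395 positive and 2 to 151 negative, and for Kdm5b a difference of 0.8735 to 1.072; its call was lost without control ESC replicate 3 (0.9143) and knockdown NPC replicate 2 (0.9545). No named call was reversed in any of the 22 fits, but these share most or all arrays, and several share the same estimate. The causes of the shifts in the counts were not tested. Replicate numbers come from the titles. Deviations of same-numbered arrays correlated above 0.1 in all 3 pairs only between control ESC and control NPC (0.266, 0.286 and 0.334), and in knockdown ESC and NPC at 0.122, 0.19 and -0.0336, so the numbers were not taken to pair the 4 groups. With a replicate block 152 genes passed (125 and 27), 140 of them among the 267. Of 68 named calls 20 were lost with that block (adjusted p up to 0.0705), namely Emcn, Cdh5, Bmp5, Ncam1, Pmel, Phyhd1, Dppa5a, Utf1, Tex11, Dnmt3b, Cldn6, Sox11, Crmp1, Ccn2, Amotl2, Dusp6, Oasl2, Peg10, Hoxc13 and Dtx3l. With a replicate block within shRNA 487 passed (350 and 137), 247 of them among the 267, and of the named calls Crmp1 and Phyhd1 were lost. Levels below the lower quartiles (5.84 to 6.11) carry little signal over background, and keeping only the 14767 genes above their mean gave 319 calls.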
